A study of Saccharomyces cerevisiae with 5 samples.

Results

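The genes described are 36 Saccharomyces cerevisiae genes of purine and pyrimidine synthesis, salvage and uptake, out of 6249 genes and unnamed features on the array. They were taken by their symbols from a list chosen with earlier results of these data known. URA3 of the same pathway was left off the list because it serves as a strain marker. All 36 genes had 1 probe each and a value on every array. They were read on 5 two-colour arrays of polyadenylated RNA, 1 array per comparison and no replicate.

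On 3 arrays a SIW14 deletion strain (labelled Siw14D, here siw14) was set against BY4741, a laboratory wild type. These pairs were unstressed, both given 0.4 mM hydrogen peroxide, or both given 0.4 M KCl. For the BY4741 cells of the stressed pairs, the title and treatment entry name the stress while the source name gives the medium alone, and the title was followed. The other 2 arrays set wild-type ACY044 cells in 0.4 mM peroxide, or in 0.4 M KCl, against unstressed ACY044 cells. Stress ratios of wild type below are thus of ACY044, whereas siw14 ratios are over BY4741. No array set stressed BY4741 cells against unstressed ones. Stress lasted 20 min, in cultures in log phase in synthetic complete medium. SIW14 encodes a phosphatase of inositol pyrophosphates, and the study asked how its loss bears on the environmental stress response. Values are log2 ratios, the siw14 or stressed cells over their partner, so that 1 is 2-fold higher and -1 is 2-fold lower. With 1 array per comparison, 2-fold serves only as a mark of size, and no gene's ratio has an error or a test. The dyes were not swapped, so dye and condition cannot be told apart.

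Yeast makes purines stepwise on a ribose phosphate until IMP, which is turned into AMP or GMP. The ADE genes of this route are activated by Bas1 with Pho2 when adenine is scarce. Pyrimidines are closed into a ring first, as orotate, then joined to ribose phosphate to give UMP and from it UTP and CTP, and the activator Ppr1 turns on URA genes when pathway intermediates build up. Permeases and salvage enzymes let cells use bases from the medium instead. In growing yeast a large share of these nucleotides goes into ribosomal RNA.

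On the whole series, array medians lay between -0.02 and 0.03 and 1.63% to 10.4% of probes lacked a value. The median absolute deviation over genes was 0.256 on the unstressed siw14 array and 0.491 to 0.517 on the other 4, so a given ratio stood further out on the unstressed siw14 array. SIW14 lay at -2.07 unstressed, -1.66 in peroxide and -2.06 in KCl on the siw14 arrays. URA3, which encodes the enzyme that makes UMP and which BY4741 is known to lack, lay at 3.02, 1.63 and 2.53 on the same arrays, and at -0.42 in peroxide and -0.20 in KCl in ACY044. LEU2, which BY4741 also lacks, lay at 1.84, 2.24 and 2.10 on the siw14 arrays. The strains paired on these arrays therefore had unequal URA3 and LEU2 signal as well as unequal SIW14 signal, and for every siw14 ratio below these differences cannot be told apart.

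**Figure D1:**
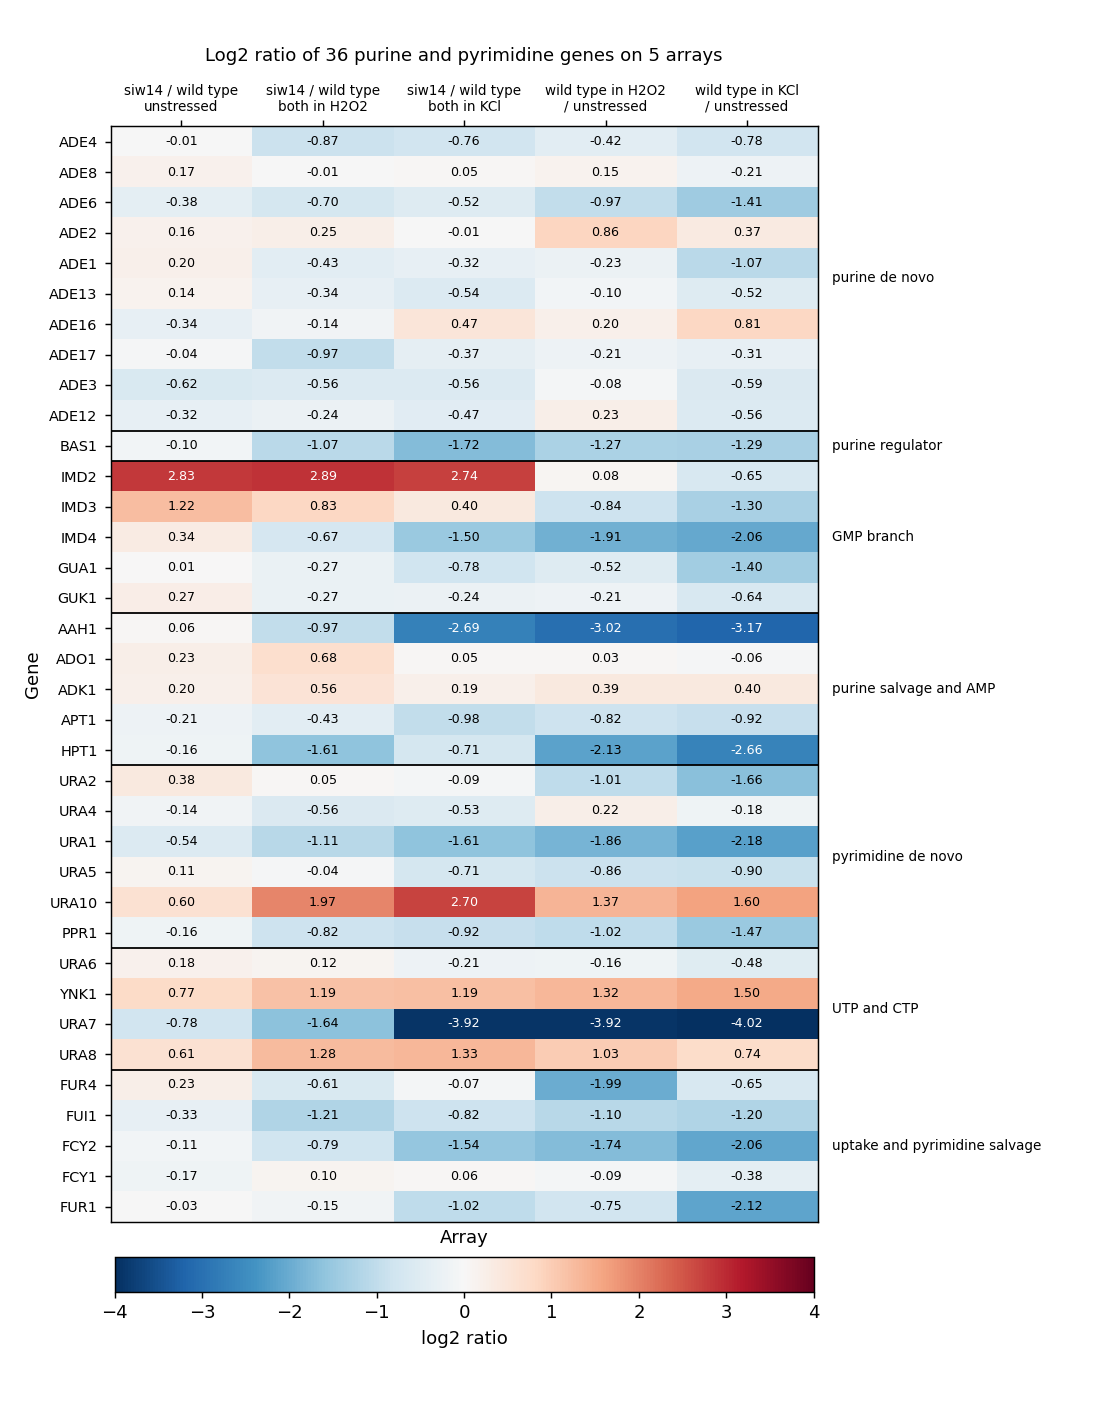
Log2 ratio of each of the 36 genes (rows, ordered by role) on each of the 5 arrays (columns); red is higher and blue lower in the siw14 or stressed cells, with the colour ending at 4 in size. IMD2 stands out in the 3 siw14 columns, at 2.83, 2.89 and 2.74, and URA7 is darkest in wild type in peroxide, at -3.92, and in both KCl columns, at -3.92 for siw14 and -4.02 for wild type.

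Many of these genes were lower in stressed than in unstressed wild-type cells, although a few were higher. In KCl, 15 of the 36 genes (41.7%) were at least 2-fold lower, against 11.7% of all genes on that array, and 2 (5.56%) were at least 2-fold higher, against 11.5%. Their median was -0.72 (95% interval over genes -1.30 to -0.48), beside 0.03 for all genes. In peroxide, 11 of 36 (30.6%) were at least 2-fold lower, against 11.3% of all genes, and 3 (8.33%) at least 2-fold higher, against 10.7%. The median was -0.32 (-0.97 to -0.08). Both wild-type arrays used unstressed ACY044 cells as partner, and the labels do not say whether these were the same culture.

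Without stress the siw14 ratios of most members were close to 0. Of the 36 genes 2 (5.56%) were at least 2-fold higher, against 6.18% of all genes, and 0 at least 2-fold lower, against 1.55%. Both higher genes, IMD2 and IMD3, encode IMP dehydrogenase. With both strains in peroxide, 4 (11.1%) were at least 2-fold higher, against 12.8% of all genes, and 5 (13.9%) at least 2-fold lower, against 8.30%. With both strains in KCl, 4 (11.1%) were at least 2-fold higher, against 11.4%, and 7 (19.4%) at least 2-fold lower, against 11.0%. The medians were 0.03 (-0.14 to 0.20) unstressed, -0.31 (-0.67 to -0.01) in peroxide and -0.50 (-0.76 to -0.07) in KCl. The share of higher genes was thus near that of the whole array in all 3 siw14 comparisons.

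**Figure D2:**
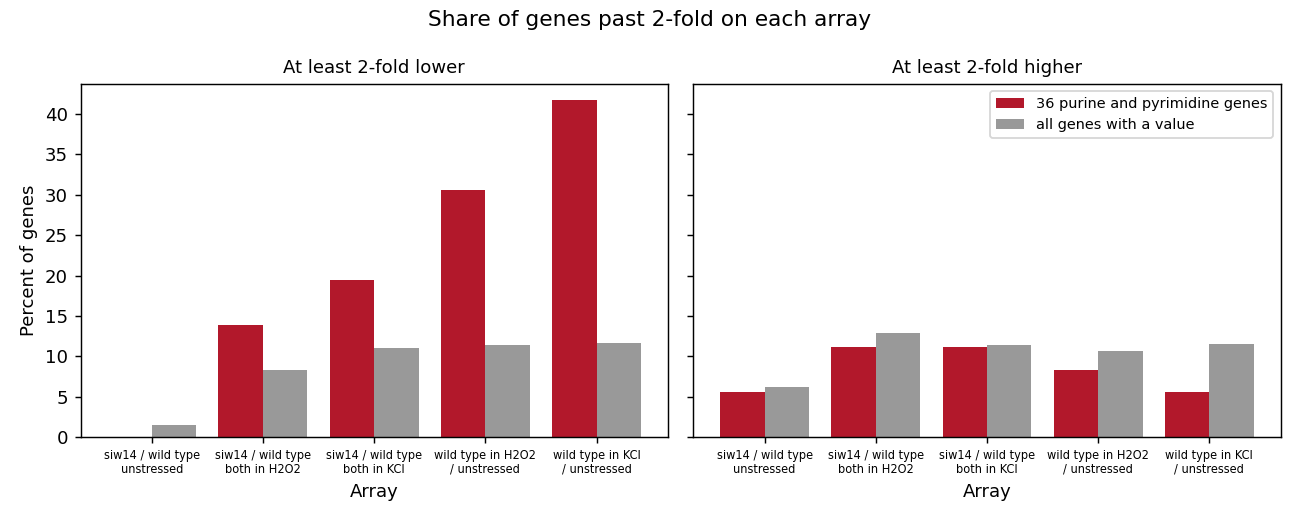
Percent of genes at least 2-fold lower (left) and at least 2-fold higher (right) on each array, for the 36 purine and pyrimidine genes (red) and for all genes with a value (grey). The red bars exceed the grey ones most on the lower side of the wild-type arrays, at 41.7% against 11.7% in KCl and 30.6% against 11.3% in peroxide.

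The 10 de novo ADE genes, which cover a part of purine synthesis to IMP and AMP, stayed within 2-fold on all 3 siw14 arrays. They also stayed within 2-fold in wild-type cells in peroxide. Their medians were -0.03 for unstressed siw14 cells, -0.38 with both strains in peroxide, -0.42 with both in KCl, -0.09 for wild type in peroxide and -0.54 for wild type in KCl. On the wild-type KCl array 2 of the 10 (20.0%) were at least 2-fold lower, against 11.7% of all genes. ADE6, which encodes the FGAM synthetase, lay at -1.41 there, after -0.97 in wild-type peroxide and between -0.70 and -0.38 on the siw14 arrays. ADE1, which encodes SAICAR synthetase, lay at -1.07 in wild-type KCl and between -0.43 and 0.20 on the other arrays. ADE4, which encodes the amidotransferase that commits the pathway, lay at -0.78 in wild-type KCl and at -0.42 in wild-type peroxide. In siw14 cells ADE4 lay at -0.01 unstressed, -0.87 in peroxide and -0.76 in KCl.

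The other ADE genes stayed within 2-fold, some above 0 and some below. ADE2, whose product carboxylates the purine precursor AIR, lay at 0.86 in wild-type peroxide and 0.37 in wild-type KCl, and between -0.01 and 0.25 in the siw14 comparisons. ADE8, for the GAR transformylase, lay between -0.21 and 0.17 on all arrays. ADE3, which encodes the enzyme that supplies one-carbon folates, lay at -0.62, -0.56 and -0.56 on the siw14 arrays without stress, in peroxide and in KCl, whereas its wild-type ratios were -0.08 in peroxide and -0.59 in KCl. ADE13, for adenylosuccinate lyase, lay between -0.54 and 0.14 on all arrays, and ADE12, for adenylosuccinate synthase, between -0.56 and 0.23. No ADE gene reached 2-fold higher on any array.

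ADE16 and ADE17 encode isoenzymes of the final transformylase and cyclohydrolase steps to IMP. ADE16 lay at 0.81 in wild-type KCl and 0.20 in wild-type peroxide, while ADE17 lay at -0.31 and -0.21 there. On the siw14 arrays ADE16 lay at -0.34 unstressed, -0.14 in peroxide and 0.47 in KCl, and ADE17 at -0.04, -0.97 and -0.37. The ratios of the pair were furthest apart in wild-type KCl, by 2.19-fold. Each ratio is over the gene's own partner signal, so such distances here and below do not compare RNA amounts between genes.

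BAS1, the gene of the Myb-family activator of the ADE genes, had lower stress ratios than most ADE genes. Its ratio was -1.27 in wild-type peroxide and -1.29 in wild-type KCl. In siw14 cells relative to wild type the ratio was -1.07 with both strains in peroxide, -1.72 with both in KCl and -0.10 without stress. BAS1 was thus past 2-fold on all 4 arrays with stress as deposited. After scaling to a common median absolute deviation it lay at -0.93 on the siw14 peroxide array, within 2-fold. PHO2, the gene of its partner activator and not a member, lay between -0.10 and 0.53 on the 5 arrays. Of the chromosomal neighbours of BAS1 that had a value, UBP11 was above 0 on all 5 arrays (0.30 to 1.71). SIR1 lay at -1.03 on the siw14 peroxide array, close to BAS1, and between -0.42 and 0.00 on the other 4.

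The branch from IMP to GMP held IMD2, which had the highest ratio of the 36 genes on all 3 siw14 arrays. IMP dehydrogenase, the rate-limiting enzyme of GTP synthesis, is encoded by IMD2, IMD3 and IMD4, and IMD2 is known to be induced when guanine nucleotides run low. IMD2 lay at 2.83 unstressed, 2.89 in peroxide and 2.74 in KCl in siw14 cells relative to wild type, or 7.12-fold, 7.40-fold and 6.67-fold higher. It ranked 35th from the top of 5603 genes unstressed, 92nd of 5806 in peroxide and 56th of 5816 in KCl. In wild-type cells IMD2 lay at 0.08 in peroxide and -0.65 in KCl. As deposited, the siw14 ratio of IMD2, over BY4741, was therefore nearly the same size in all 3 conditions. After scaling to a common median absolute deviation it lay at 5.03 unstressed, 2.58 in peroxide and 2.50 in KCl. The stress ratios of IMD2 in wild-type ACY044 were within 2-fold. PHO12, next to IMD2 on the chromosome, lay at -0.01, -0.22 and 0.39 on the siw14 arrays, so the neighbour did not share the high ratio. In wild type PHO12 lay at -0.93 in peroxide and -2.72 in KCl.

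**Figure D3:**
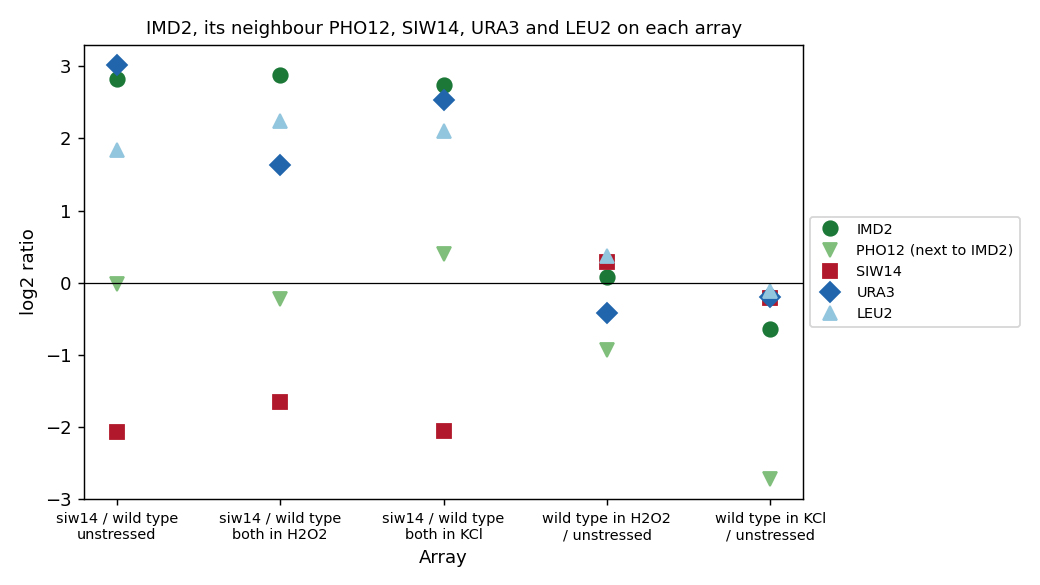
Log2 ratio (vertical axis) of IMD2, its chromosomal neighbour PHO12, the deleted gene SIW14, and the marker genes URA3 and LEU2 on each of the 5 arrays; each point is 1 array. IMD2, URA3 and LEU2 lie at 1.63 or above on the siw14 arrays, and these 3 genes lie between -0.65 and 0.37 on the wild-type arrays.

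IMD3 and IMD4 had lower siw14 ratios under stress than without it. IMD3 lay at 1.22 unstressed, 0.83 in peroxide and 0.40 in KCl, and IMD4 at 0.34, -0.67 and -1.50. In wild-type cells IMD3 lay at -0.84 in peroxide and -1.30 in KCl, and IMD4 at -1.91 and -2.06. On every array the order of the ratios was IMD2, then IMD3, then IMD4. The siw14 ratios of IMD2 and IMD4 were apart by 5.62-fold unstressed, 11.8-fold in peroxide and 18.8-fold in KCl. The 3 genes are alike in sequence, and how far their probes take up RNA of one another was not tested.

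The enzymes after IMP dehydrogenase were near 0 in unstressed siw14 cells. GUA1, for GMP synthase, lay at 0.01 unstressed, -0.27 in peroxide and -0.78 in KCl in siw14 cells, and at -0.52 in peroxide and -1.40 in KCl in wild type. GUK1, for guanylate kinase, lay between -0.64 and 0.27 on all arrays. The 2-fold lower calls of this branch in wild-type KCl were IMD3, IMD4 and GUA1, and in wild-type peroxide IMD4.

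**Figure D4:**
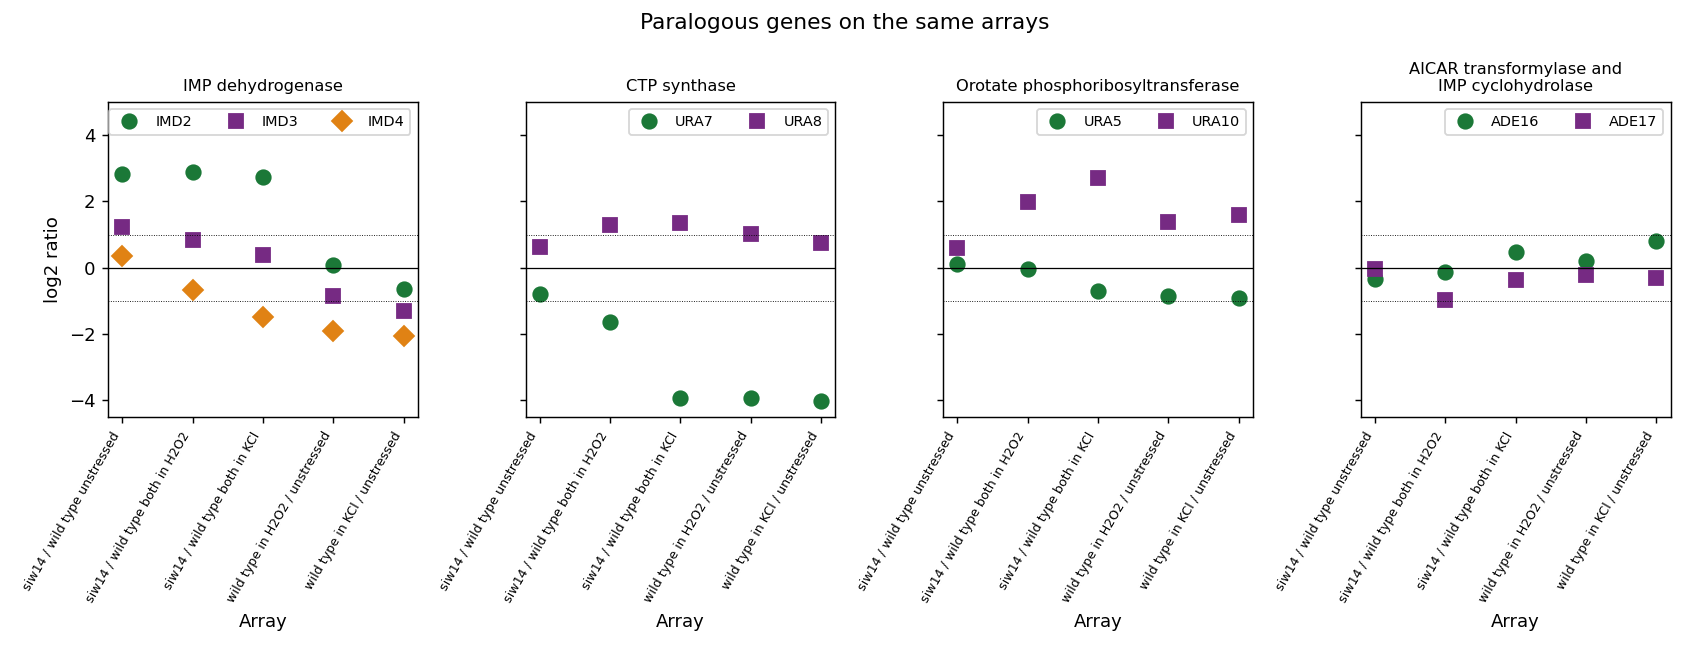
Log2 ratio (vertical axis) of the members of 4 enzyme families on each of the 5 arrays; dotted lines mark 2-fold. IMD2 lies above IMD3 and IMD4 on every array, URA8 above URA7, and URA10 above URA5.

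Purine salvage divided by enzyme. AAH1, which encodes adenine deaminase, the enzyme that turns adenine into hypoxanthine, lay at -3.02 in wild-type peroxide and -3.17 in wild-type KCl, or 8.10-fold and 9.03-fold lower. Those values were the 13th lowest of 6053 and the 53rd lowest of 6147 genes. In siw14 cells relative to wild type, AAH1 lay at 0.06 unstressed, -0.97 in peroxide and -2.69 in KCl, which is 6.46-fold lower and the 66th lowest of 5816 genes. Its neighbours MEP2 and THO2 lay at -0.14 and 0.01 on the siw14 KCl array. On the other arrays MEP2 lay between -0.02 and 0.19 but at -1.30 in wild-type KCl, and THO2 between -0.75, in siw14 cells in peroxide, and -0.16.

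HPT1, which encodes the phosphoribosyltransferase that salvages hypoxanthine and guanine, was low beside AAH1 in wild-type stress. The siw14 ratios of HPT1, however, were ordered the other way. HPT1 lay at -2.13 in wild-type peroxide and -2.66 in wild-type KCl. In siw14 cells it lay at -0.16 unstressed, -1.61 in peroxide and -0.71 in KCl, so its lowest siw14 ratio was in peroxide, at 3.04-fold lower, and not in KCl as for AAH1. UTP5, a ribosome assembly gene next to HPT1, was also below 0 on all 5 arrays, at -1.44 in wild-type peroxide, -3.31 in wild-type KCl, -0.52 in unstressed siw14 cells, -0.84 in siw14 cells in peroxide and -2.83 in siw14 cells in KCl. URH1, on its other side, lay between -0.58 and 0.08 on the 5 arrays.

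The other genes of purine salvage and AMP, APT1, ADO1 and ADK1, stayed within 2-fold on all 5 arrays. APT1, for adenine phosphoribosyltransferase, lay at -0.82 in wild-type peroxide and -0.92 in wild-type KCl, and in siw14 cells at -0.21, -0.43 and -0.98 without stress, in peroxide and in KCl. ADO1, for adenosine kinase, lay between -0.06 and 0.23 on 4 arrays and at 0.68 in siw14 cells in peroxide. ADK1, for adenylate kinase, was above 0 on all 5 arrays, between 0.19 and 0.56.

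The de novo pyrimidine genes were mostly lower in stressed wild-type cells. URA10 was the exception on both wild-type arrays, and URA4 lay above 0, at 0.22, in wild-type peroxide. URA2 encodes the enzyme of the opening steps, with carbamoyl phosphate synthetase and aspartate transcarbamylase activity. It lay at -1.01 in wild-type peroxide and -1.66 in wild-type KCl, but at 0.38 unstressed, 0.05 in peroxide and -0.09 in KCl in siw14 cells relative to wild type. URA4, for dihydroorotase, stayed between -0.56 and 0.22 on all arrays. URA1, for dihydroorotate dehydrogenase, was the lowest of the group on every array, at -1.86 in wild-type peroxide and -2.18 in wild-type KCl. In siw14 cells URA1 lay at -0.54 unstressed, -1.11 in peroxide and -1.61 in KCl. PPR1, the gene of the activator of this route, lay at -1.02 in wild-type peroxide and -1.47 in wild-type KCl, and at -0.16, -0.82 and -0.92 on the siw14 arrays.

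URA5 and URA10 encode the major and the minor orotate phosphoribosyltransferase, and their ratios parted on every array with stress. URA10 lay at 1.37 in wild-type peroxide and 1.60 in wild-type KCl, the highest of the 36 genes on both arrays. In siw14 cells it lay at 0.60 unstressed, 1.97 in peroxide and 2.70 in KCl, or 3.91-fold and 6.48-fold higher with both strains in peroxide and in KCl. On the siw14 KCl array it ranked 59th from the top of 5816 genes. URA5 lay at -0.86 in wild-type peroxide and -0.90 in wild-type KCl, and at 0.11, -0.04 and -0.71 in siw14 cells. The ratios of the pair were 4.69-fold apart in wild-type peroxide, 5.65-fold in wild-type KCl and 10.6-fold on the siw14 KCl array. Neighbours of URA10 with a value, RRN9 and SCS7, lay at -0.16 and 0.02 on that array, RRN9 between -0.68 and 0.26 on the other 4, and SCS7 between -1.75, in wild-type peroxide, and 0.39. URA3, the gene of the next step, was the marker gene that differed between the strains, and its part in the siw14 ratios of URA1, URA5 and URA10 was not tested.

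CTP synthase, the enzyme that aminates UTP, is encoded by URA7 and URA8, which lay on opposite sides of 0 on every array. URA7, the gene of the major form, lay at -3.92 in wild-type peroxide and -4.02 in wild-type KCl, or 15.2-fold and 16.2-fold lower, the 3rd lowest of 6053 and the 8th lowest of 6147 genes. In siw14 cells relative to wild type URA7 lay at -0.78 unstressed, -1.64 in peroxide and -3.92 in KCl, where it was 15.1-fold lower and the 7th lowest of 5816 genes. It was the lowest of the 36 members on all 5 arrays. URA8, the gene of the other form, lay at 1.03 in wild-type peroxide and 0.74 in wild-type KCl, and at 0.61, 1.28 and 1.33 on the siw14 arrays. The ratios of URA7 and URA8 were 30.9-fold apart in wild-type peroxide and 27.1-fold in wild-type KCl. On the siw14 arrays these ratios were 2.62-fold apart unstressed, 7.54-fold in peroxide and 38.2-fold in KCl. Next to URA7, ERD2 lay between -0.09 and 0.39 and MRPL16 between 0.41 and 1.15 on the 5 arrays. Next to URA8, VPS25 was also above 0 on the 5 arrays, between 0.29 and 1.06. SOD1, on the other side of URA8, had values only in peroxide, at 2.44 in siw14 cells and 2.04 in wild type. No intensities were used here, so how near to background the lowest signals lay is not known.

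YNK1, which encodes the nucleoside diphosphate kinase that makes triphosphates from diphosphates, was higher under every stress comparison. It lay at 1.32 in wild-type peroxide, 1.5 in wild-type KCl, 1.19 in siw14 cells in peroxide, 1.19 in siw14 cells in KCl and 0.77 in unstressed siw14 cells. YET1, one of its neighbours, lay at 1.64, 1.75, 1.17, 0.63 and 0.78 in the same order, and the other, NUP100, was below 0 on all 5 arrays. URA6, for UMP kinase, lay between -0.48 and 0.18 on all arrays.

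Permease genes were lower in stressed wild-type cells, and FUR4 differed most between the 2 stresses. FCY2, for the purine and cytosine permease, lay at -1.74 in wild-type peroxide and -2.06 in wild-type KCl, and in siw14 cells at -0.11 unstressed, -0.79 in peroxide and -1.54 in KCl. FUR4, for the uracil permease, lay at -1.99 in wild-type peroxide but at -0.65 in wild-type KCl, and at 0.23, -0.61 and -0.07 on the siw14 arrays. FUI1, for the uridine permease, lay at -1.10 and -1.20 in wild-type peroxide and KCl, and at -0.33, -1.21 and -0.82 on the siw14 arrays.

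Among the pyrimidine salvage enzymes, FUR1, for the uracil phosphoribosyltransferase, lay at -2.12 in wild-type KCl and -0.75 in wild-type peroxide, the reverse order to the uracil permease gene FUR4. In siw14 cells FUR1 lay at -0.03 unstressed, -0.15 in peroxide and -1.02 in KCl. FCY1, for cytosine deaminase, lay between -0.38 and 0.10 on all 5 arrays.

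To set the siw14 ratio under stress against that without stress, the unstressed ratio was subtracted gene by gene. Both differences use the same unstressed array, and each rests on 2 single arrays. For KCl, 6 of 36 genes (16.7%) were at least 2-fold lower, against 7.83% of all genes, and 1 (2.78%) at least 2-fold higher, against 4.06%. URA7 was lower by a difference of -3.14, AAH1 by -2.75, IMD4 by -1.84, BAS1 by -1.62, FCY2 by -1.43 and URA1 by -1.07. URA10 was higher by 2.10, the 22nd highest of 5544 genes. For peroxide, 3 genes (8.33%) were at least 2-fold lower, against 3.94% of all genes, and 1 (2.78%) at least 2-fold higher, against 5.09%. HPT1 differed by -1.44, AAH1 by -1.03, IMD4 by -1.01 and URA10 by 1.37. IMD2 differed by 0.06 in peroxide and -0.09 in KCl, on the deposited scale.

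**Figure D5:**
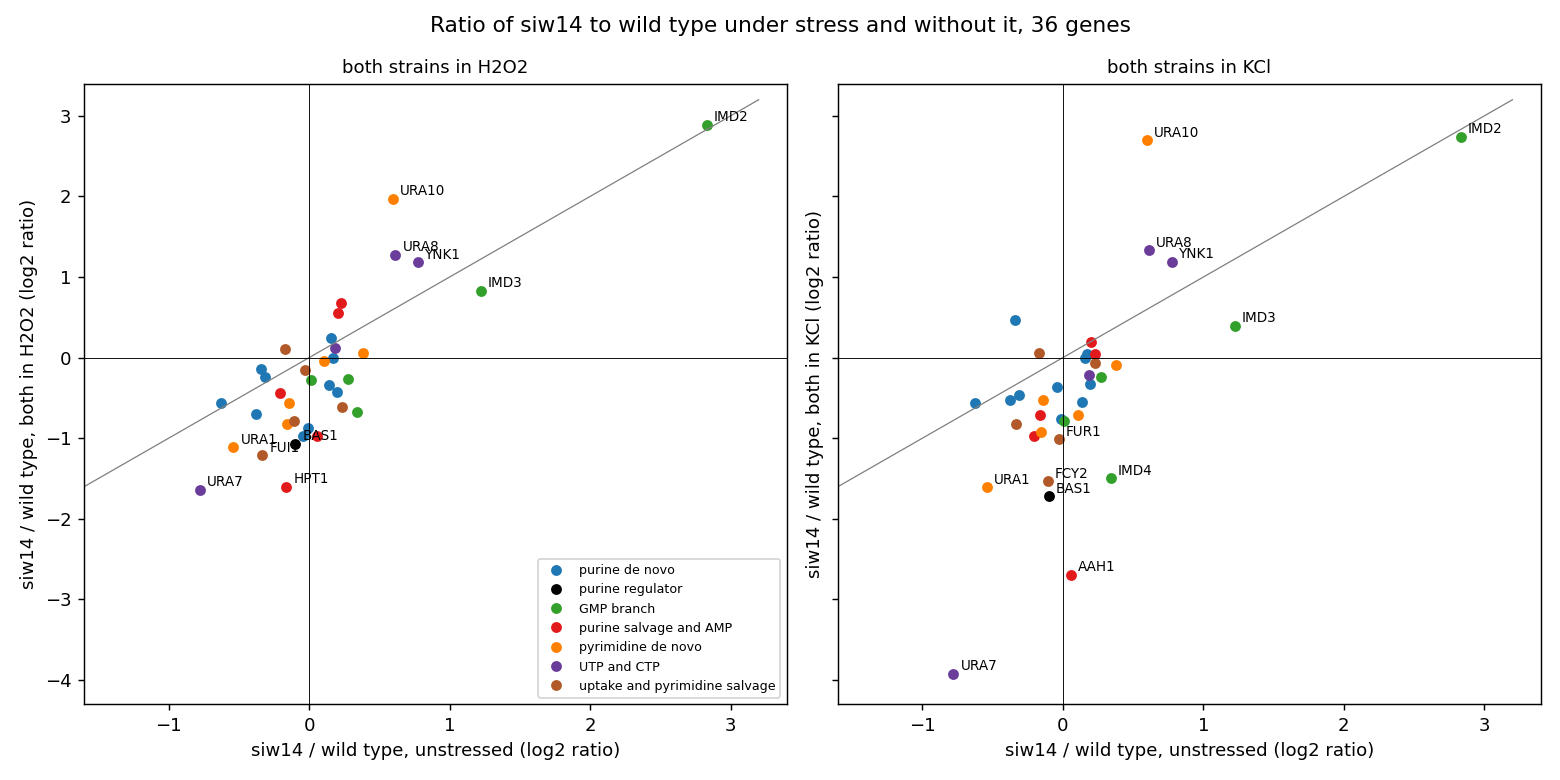
Log2 ratio of siw14 to wild type with both strains in peroxide (left, vertical axis) or in KCl (right, vertical axis) against the unstressed ratio (horizontal axis) for the 36 genes, coloured by role; the grey line marks equal ratios and genes at 2-fold or more on either axis are named. IMD2 sits close to the line in both panels, URA10 sits above it, and URA7 and AAH1 sit far below it in KCl, at -3.92 and -2.69.

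Genes for making ribosomes gave lower and more uniform ratios than the nucleotide genes. In wild-type KCl 19 ribosome assembly genes had a median of -3.59, with 19 at least 2-fold lower, and 19 genes of RNA polymerases I and III a median of -1.95, with 18 lower, beside -0.72 and 15 of 36 for the nucleotide genes and 11.7% lower among all genes. With both strains in KCl the siw14 medians were -2.60 for ribosome assembly, -1.34 for the polymerases and -0.50 for the nucleotide genes. URA7 and AAH1 lay in the range of the ribosome assembly genes on the siw14 KCl array (-4.28 at the lowest), while URA8, URA10 and YNK1 were above 0 there. These lists had 1 array each and the difference between them was not tested.

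Of 22 further genes of the pathway, also listed with earlier results of these data known, 19 had a named probe. In wild-type KCl 7 of the 18 with a value (38.9%) were at least 2-fold lower, against 11.7% of all genes, and 0 higher, against 11.5%. In wild-type peroxide 4 of 19 (21.1%) were lower, against 11.3%, and 0 higher, against 10.7%. The lowest in wild-type KCl were DCD1, for dCMP deaminase, at -1.59 and PRS4, for a subunit of the synthase that makes the ribose phosphate donor, at -1.56, and the highest were AMD1, for AMP deaminase, at 0.64 and PHO2 at 0.53. In wild-type peroxide URK1, for uridine kinase, and PRS5 were lowest, at -1.72 and -1.24, and CDD1, for cytidine deaminase, and PHO2 highest, at 0.50 and 0.46. In unstressed siw14 cells 0 of 19 passed 2-fold in either direction, against 6.18% of all genes higher and 1.55% lower, and the values ran from -0.41 for APT2 and -0.38 for FCY22 to 0.34 for PRS3 and 0.52 for CDD1. With both strains in peroxide 1 of 19 (5.26%) was lower, against 8.30% of all genes, and 1 higher, against 12.8%. These were DCD1 at -1.13, ahead of URK1 at -0.77, and CDD1 at 1.20, ahead of PNP1, for purine nucleoside phosphorylase, at 0.35. With both strains in KCl 3 of 18 (16.7%) were lower, against 11.0% of all genes, and 0 higher, against 11.4%. The lowest were DCD1 at -1.50, URK1 at -1.33 and PRS4 at -1.31, and the highest were FCY22 at 0.61 and XPT1, for xanthine phosphoribosyltransferase, at 0.58.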

How the data were processed

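The 5 arrays were matched to their comparisons through their labels, 1 per comparison. The values are log2 ratios of Cy5 over Cy3 that the authors deposited, 1 per probe, with mutant or stressed cells in Cy5 per the labels. The base of the logarithm was assumed, since it, the normalisation, the background correction and the reason for missing values are not given in the sources used here. No intensities were used, so signal over background is unknown, and the number of arrays limits the precision.

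Of 6256 yeast probes, 4075 had 1 gene symbol, 0 several and 2181 none; 129 symbols were updated through the RefSeq gene table and 4 kept as given. Probes of 7 symbols were averaged, giving 6249 values per array, and 53 control features were left out. The RefSeq table also gave chromosomal neighbours, for which the nearest gene with a named probe was taken. No promoter or protein sequence was used, so the planned motif counts and paralogue identities were not run.

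No test was possible. Genes were counted at 2-fold, a log2 ratio of 1, and lists described by median with an order-statistic 95% interval over genes. All 36 members could be named, and other genes only as the report states. The members and lists were chosen with earlier results of these data known, and URA3, LEU2 and neighbouring genes after their values were seen. Alternatives were centring, scaling, other folds, natural logarithms and leaving out paralogues. Counts and intervals were tested on simulated data. Python 3.11.15, numpy 2.4.6, pandas 2.3.3 and matplotlib 3.10.9 were used.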

Additional observations from a re-analysis of the deposited data

How the results depend on the processing

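Centring each array on its median changed no count of members past 2-fold. Each median over members stayed within its interval over genes under centring and scaling. Role group medians stayed within the range of their own genes, which is a loose limit. On the unstressed siw14 array scaling moved the GMP branch median from 0.34 to 0.61. The median of the UTP and CTP genes moved from 0.40 to 0.71 there. Single genes whose ratio moved by more than 1.5-fold under scaling were IMD2, IMD3, YNK1 and URA7, all on that array. IMD2 went from 2.83 to 5.03, IMD3 from 1.22 to 2.17, YNK1 from 0.77 to 1.38 and URA7 from -0.78 to -1.38. The share of all genes past the same mark is given in brackets, and counts not listed changed by no more than 1.5-fold. After scaling to a common median absolute deviation, unstressed siw14 cells had 5 higher (12.3%) and 2 lower members (7.12%), against 2 and 0 as deposited, siw14 cells in peroxide 4 higher (11.3%) and 3 lower (5.87%), against 4 and 5, and wild type in peroxide 2 higher (8.03%) and 8 lower (9.57%), against 3 and 11. At 1.5-fold, 5 members were higher (11.8%) and 2 lower (6.53%) in unstressed siw14 cells, 13 lower in siw14 cells in peroxide (20.9%), 14 lower in siw14 cells in KCl (21.3%) and 4 higher in wild type in KCl (21.8%). At that mark 16 were lower in wild type in peroxide (22.2%) and 22 in wild type in KCl (21.1%). At 3-fold, 1 was higher in unstressed siw14 cells (2.89%), 2 higher (6.11%) and 2 lower (2.02%) in siw14 cells in peroxide, 2 higher (4.76%) and 4 lower (4.76%) in siw14 cells in KCl, 0 higher (4.18%) and 7 lower (4.43%) in wild type in peroxide, and 1 higher (5.21%) and 8 lower (5.84%) in wild type in KCl. Read as natural logarithms, 1 was lower in unstressed siw14 cells (4.07%), 11 in siw14 cells in peroxide (16.7%) and 14 in siw14 cells in KCl (17.3%), and 4 were higher in wild type in KCl (18.6%). On that reading 16 were lower in wild type in peroxide (19.1%) and 18 in wild type in KCl (17.9%). Without the 9 paralogues of the IMD, ADE16, URA5 and URA7 families, 27 members were left. Of these, 0 were higher in unstressed siw14 cells (6.18%). On the other arrays 1 each was higher: siw14 cells in peroxide (12.8%) and KCl (11.4%), and wild type in peroxide (10.7%) and KCl (11.5%). In the same order, 0 (1.55%), 4 (8.30%), 5 (11.0%), 9 (11.3%) and 12 (11.7%) were lower. All 36 members had 5 values, so keeping only complete members left every count and median the same. The alternative on single probes could not be run, because each member had 1 probe. No paired analysis was possible because each comparison had 1 array.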

Other observations

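IMD2 was set against all genes for its pattern, a comparison chosen after its values were seen. Of 5437 genes with a value on all 5 arrays, 232 were at least 2-fold higher on all 3 siw14 arrays. Of these, 73 were also within 2-fold on both wild-type arrays, which used ACY044 and not BY4741. IMD2 was the only one of the 36 purine and pyrimidine genes among the 73, and by its lowest siw14 ratio, 2.74, it ranked 1st. The next named genes were BUD25, RNP1 and MF(ALPHA)2, with lowest siw14 ratios of 2.33, 2.33 and 2.28. MF(ALPHA)2 encodes the alpha-factor pheromone, which cells of the MATa type, such as BY4741, are known not to make. The opposite pattern, at least 2-fold lower on all siw14 arrays and within 2-fold on both wild-type arrays, was held by 16 genes.

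HIS3 and MET17, which BY4741 is known to lack, had no value on any of the 3 siw14 arrays, and lay at 0.89 and 0.69 in wild type in peroxide and at -0.67 and -1.51 in wild type in KCl. Whether strain differences other than SIW14 bear on the siw14 ratios of IMD2, URA10 or URA7 was not tested.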
